A study of Mus musculus with 6 samples.

Results

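The solute carriers are the genes whose symbols start with Slc and carry a family number, a letter and a member number. Of the 12331 gene rows of the expression table, 188 had such a symbol, with the glucose transporter Slc2a1 left out by the rule. They belonged to 42 families. The rule used names only and no measured value. Of the 188 genes, 75 reached 1 RPKM (reads per kilobase of a gene, divided by the size of the library) in at least 3 of the 6 libraries and were tested, and 113 did not. The 75 tested genes belonged to 28 families.

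All 6 libraries came from the established mouse embryonic stem line E14tg2a, grown with serum and the cytokine LIF, with no other treatment or genotype named in the labels. By the extraction protocol, 10 pg of RNA purified from the culture, about the amount in a single cell, was copied from its poly(A) end and amplified by PCR, although the sample descriptions speak of a lysate. For 3 libraries the amplified cDNA was sheared by sonication before adaptors were ligated, and for 3 a hyperactive Tn5 transposase cut and tagged it in a single reaction (tagmentation). The study asked how these ways of making a library compare, with technical replicates numbered 1 to 3 for each. The p-values therefore measure the spread between these technical libraries and not between cultures.

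Solute carriers are membrane proteins that move sugars, amino acids, nucleosides, metals, vitamins and ions across the plasma membrane and the membranes of organelles, either down a gradient or coupled to the flow of another solute. The Slc25 family carries metabolites, phosphate and nucleotides across the inner membrane of mitochondria. Pluripotent stem cells take up glucose and amino acids at a high rate and release lactate, which makes the Slc2, Slc7, Slc1, Slc38 and Slc16 families the usual points of interest in this cell type.

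The libraries held 18852822 to 34681566 alignments. All 10 embryonic stem cell markers examined reached 1 RPKM in at least 1 library, with a summed level of 1420 to 2859 RPKM per library. Not all did so in every library: Nanog was listed at 0 in both libraries numbered 3. Klf4 stood at 0.336 and 0.141 RPKM in those numbered 1. Dppa5a had the highest mean of the 10 and made up 1739 of the 2859 RPKM in sonication library 1. Of 8 fibroblast markers 5 had a row in the expression table. Their summed level was 0.412 to 12.1 RPKM after sonication and 0.137 to 9.55 RPKM after tagmentation. Thy1 made up most of it in number 1, and Col1a1, Col1a2, Col3a1 and Pdgfrb stayed below 1 RPKM in the 6 libraries and at 0 in number 1. The endoderm marker Dab2 stood at 5.54 and 9.29 RPKM in the libraries numbered 1 and at most 0.107 RPKM in the other 4. The trophoblast marker Eomes had 2.78 and 5.29 RPKM in those numbered 2 and at most 0.129 RPKM in the other 4. The trophoblast markers Cdx2 and Krt7 reached at most 0.0616 and 0.104 RPKM in any library. Of 4 neural markers 3 had a row. Their summed level was 32.5 to 47.8 RPKM after sonication and 14.3 to 51.1 RPKM after tagmentation, nearly all of it Tubb3. Of 7 endoderm markers only Dab2 had a row under its symbol, and of 5 trophoblast markers 3 had one. Gata4, Gata6, Sox17, Sox7, Afp, Foxa2, Elf5 and Tfap2c had none. No row of the expression table was at 0 in all 6 libraries, and why a marker had no row was not tested. The part of the measured marker levels, which moved with the number, in the results was not tested. Libraries of the same number resembled each other far more than libraries of the same method. Over the 75 tested genes the correlation of log2(RPKM + 1) was 0.974 to 0.985 between the pair of libraries of a number and 0.483 to 0.624 for any other pair. These are correlations across genes, which are not independent replicates.

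Mitochondrial carriers led the solute carriers. Slc25a3 had the highest mean level of the 188 genes, Slc25a4 the next and Slc25a5 the one after, and Slc25a39 followed behind the glucose transporter Slc2a3. The 33 genes of the Slc25 family together held 44.2% to 53.4% of the summed RPKM of the solute carriers in a library. Slc25a4 and Slc25a5 encode paralogous ADP/ATP translocases, which exchange mitochondrial ATP for cytosolic ADP. Their coding sequences are 897 bases long each and encode 298 residues. They share 77.5% of their bases and 89.6% of their residues, and the longest run of identical bases is 20. A stretch of both is shown because the levels of this pair depend on reads being told apart by their differences. It is coding bases 286 to 375 of the GENCODE vM21 transcripts, 5′ to 3′, with the 19 of 90 bases that differ in capitals.
Slc25a4: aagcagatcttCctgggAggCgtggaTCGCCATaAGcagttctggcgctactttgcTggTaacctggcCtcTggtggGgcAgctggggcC
Slc25a5: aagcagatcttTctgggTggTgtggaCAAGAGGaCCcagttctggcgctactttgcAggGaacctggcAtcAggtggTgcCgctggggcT

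As the longest identical run was 20 bases, the aligned coding sequences of the pair held no 36 bases in a row in common. No 36-base word of the Slc25a4 transcript occurred in the transcript of any other gene, whereas 62.4% of those of Slc25a5 occurred in 13 other genes, 12 of them pseudogenes. The level of Slc25a5 is therefore uncertain, since how the authors treated reads with several matches is not given in the sources used here. The same holds for Slc39a7, with 82.9% of its words in the overlapping model Gm20427, for Slc35a4 with 18.1% in a processed pseudogene, and, to a lesser degree, for Slc25a3 with 5.90% and Slc3a2 with 5.00%. For 59 of the 75 tested genes no word was shared.

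Slc25a4 stood at 302, 254 and 275 RPKM in sonication libraries 1 to 3 and at 272, 274 and 369 RPKM in tagmentation libraries 1 to 3. The groups overlapped, and the means of the 3 numbers lay within 1.21-fold of each other on the (RPKM + 1) scale. Slc25a5 stood at 360, 175 and 181 RPKM after sonication and at 327, 252 and 330 RPKM after tagmentation. Its highest value was in sonication library 1, and again the groups overlapped.

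Slc25a3, the carrier that brings phosphate into mitochondria for ATP synthesis, had 293, 486 and 417 RPKM after sonication and 250, 620 and 769 RPKM after tagmentation. Both libraries numbered 1 were the lowest. Slc25a39, a carrier needed for the import of glutathione, had 143, 166 and 164 RPKM after sonication and 84.8, 145 and 159 RPKM after tagmentation. Tagmentation library 1 was the lowest, and the groups overlapped. Slc25a3, Slc25a4, Slc25a5, Slc2a3, Slc25a39 and Slc3a2 were the 6 genes with a mean of at least 100 RPKM.

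**Figure D1:**
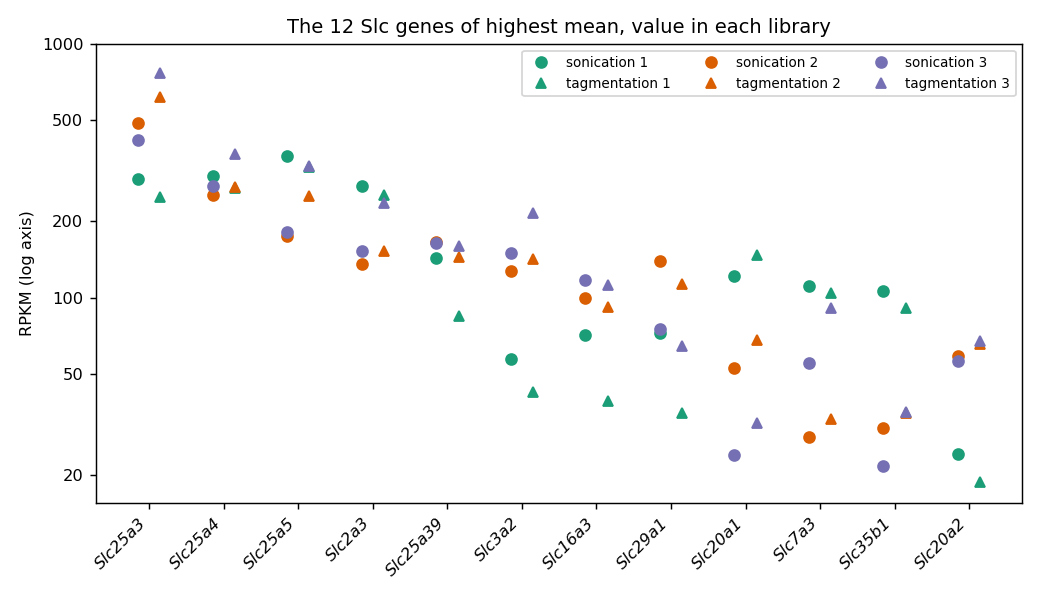
RPKM on a log axis for the 12 solute carriers of highest mean, 1 point per library, circles for sonication and triangles for tagmentation, coloured by replicate number. Points of a colour lie close together for most genes, and for Slc20a1, Slc7a3 and Slc35b1 the libraries numbered 1 are the highest of each method.

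Of the carriers for sugars, amino acids and their products, Slc2a3 and Slc3a2 had the highest levels. Slc2a3, the high-affinity glucose transporter GLUT3, stood at 276, 136 and 153 RPKM after sonication and at 254, 153 and 237 RPKM after tagmentation. It was highest in number 1 and lowest in number 2 by both methods. Slc3a2, the heavy chain that brings several amino acid transporters to the cell surface, stood at 57.5, 128 and 150 RPKM after sonication and at 42.5, 142 and 215 RPKM after tagmentation. The order of the numbers was the same by both methods, with number 1 lowest. Its light-chain partner for large neutral amino acids, Slc7a5, stood at 23.9, 12.1 and 15.7 RPKM after sonication and at 17.3, 13.4 and 22.5 RPKM after tagmentation. Heavy and light chain thus did not share their order, since Slc7a5 was above its values in number 2 where Slc3a2 was lowest. Slc16a3, the lactate exporter MCT4, stood at 71.5, 100 and 117 RPKM after sonication and at 39.2, 91.5 and 112 RPKM after tagmentation.

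Further down the 12 genes of highest mean, Slc7a3, a transporter of cationic amino acids such as arginine, stood at 112, 28.3 and 55.0 RPKM after sonication and at 104, 33.2 and 90.6 RPKM after tagmentation. The phosphate importer Slc20a1 stood at 122, 52.8 and 23.9 RPKM after sonication and at 148, 67.8 and 32.1 RPKM after tagmentation. Its paralog Slc20a2 showed another order, with 24.1, 59.1 and 56.1 RPKM after sonication and 18.7, 65.6 and 67.5 RPKM after tagmentation. In number 1 Slc20a1 was thus above Slc20a2 by both methods, and in number 3 below it. Slc29a1, an equilibrative nucleoside transporter, stood at 72.7, 139 and 75.1 RPKM after sonication and at 34.97, 113 and 64.5 RPKM after tagmentation. Slc35b1, of the nucleotide sugar transporter family, stood at 106, 30.5 and 21.6 RPKM after sonication and at 91.3, 35.02 and 35.5 RPKM after tagmentation.

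**Figure D2:**
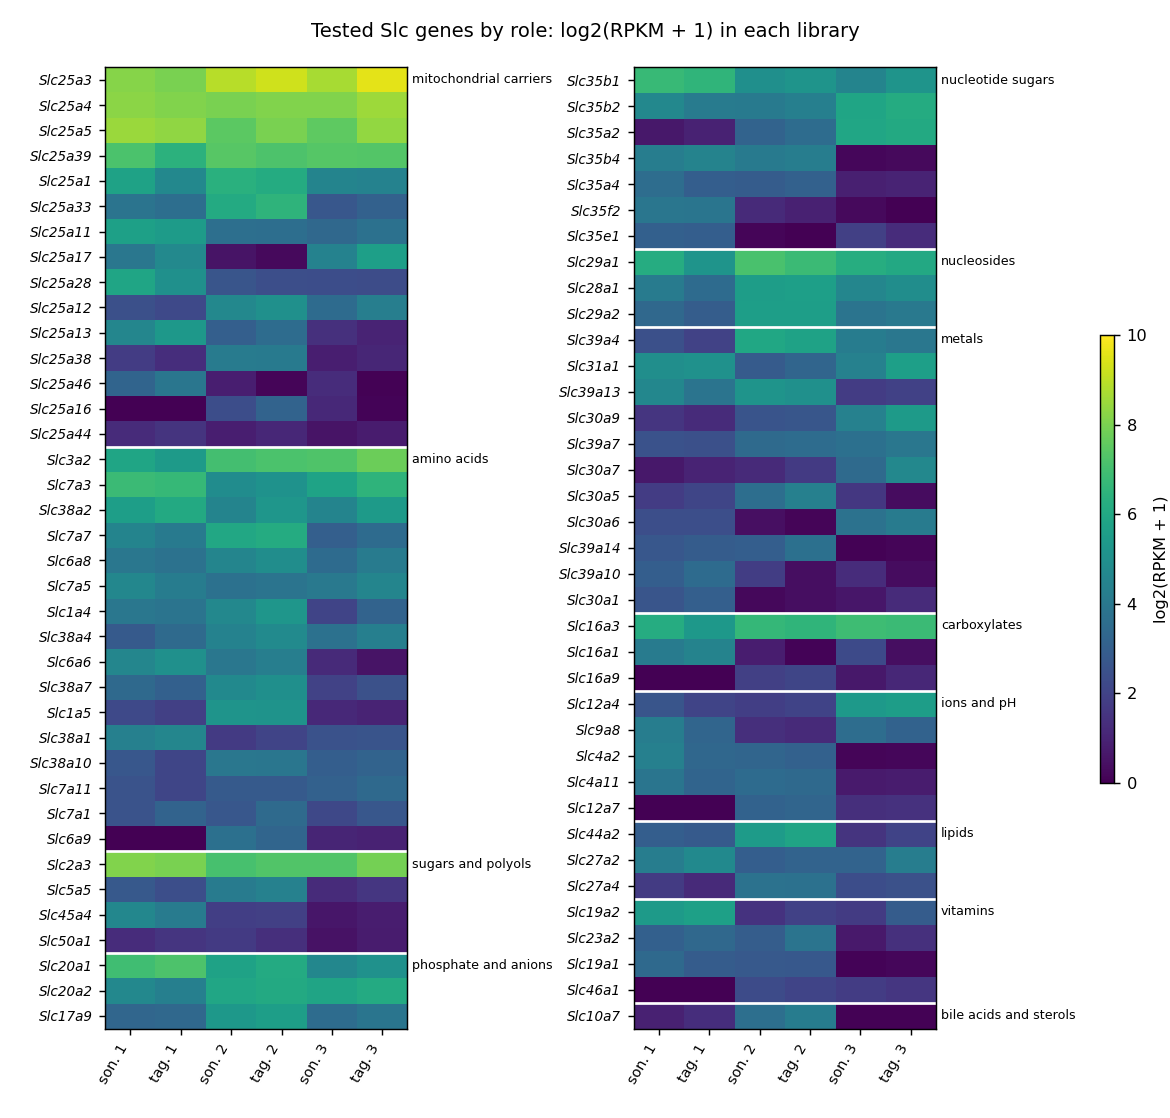
Level, as log2(RPKM + 1), of the 75 tested solute carriers in each library, arranged by the role of their family, with the same-numbered sonication (son.) and tagmentation (tag.) libraries side by side. The same-numbered columns share most of their pattern, and Slc25a3, Slc25a4, Slc25a5 and Slc2a3 form the brightest rows.

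Sonication and tagmentation were compared with limma on log2(RPKM + 1), two-sided, with Benjamini-Hochberg adjustment over all 6327 tested genes. None of the 75 tested solute carriers was called at an adjusted p under 0.05, and none had an unadjusted p under 0.05. The background over all tested genes was 0% called and 0.284% at an unadjusted p under 0.05. The log2 difference, tagmentation minus sonication, had a median of 0.06 over the solute carriers and of 0.03 over all tested genes. It ranged from -0.75 for Slc16a1 to 0.71 for Slc38a2, and it was above 0 for 44 genes and below 0 for 31. By the extraction protocol the RNA was purified from a culture, so a level does not separate the share of expressing cells from RNA per cell. This limit concerns the levels themselves, whichever method made the library. The missing calls do not show that the methods gave equal levels: the standard error of the log2 difference was 1.45 for Slc16a1 and 0.64 for Slc38a2 in this fit.

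The replicate numbers were taken as pairs, so the same test was also made with the number as a block. It called none of the 75 solute carriers, against 3.29% of all tested genes (1.58% higher and 1.71% lower after tagmentation). Of the 75, 9 had an unadjusted p under 0.05 (12%), 7 of them higher and 2 lower after tagmentation, against 16.8% of all tested genes. The difference had the same direction in all 3 pairs for 17 genes that were higher after tagmentation (22.7%, background 19.6%) and for 10 that were lower (13.3%, background 14.2%). These shares lay near the background.

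The extremes of the method difference were a glutamine and a lactate carrier. Slc38a2, a sodium-coupled carrier of glutamine and other neutral amino acids, stood at 47.6, 21.9 and 21.7 RPKM after sonication and at 65.7, 37.04 and 42.7 RPKM after tagmentation. It was higher after tagmentation in 3 of 3 pairs, while the groups overlapped. With the block the log2 difference of 0.71 had an SE of 0.30 and an adjusted p of 0.178 in limma. Slc16a1, the monocarboxylate transporter MCT1, stood at 16.7, 0.719 and 3.73 RPKM after sonication and at 21.0, 0.0783 and 0.280 RPKM after tagmentation. It was higher after tagmentation in number 1 and lower in numbers 2 and 3, and the log2 difference of -0.75 had an SE of 0.28 and an adjusted p of 0.126 with the block in limma.

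Slc29a1 was lower after tagmentation in 3 of 3 pairs, with a log2 difference of -0.52 (SE 0.30, adjusted p 0.386 with the block in limma). After quantile normalization the blocked fit called it, at -0.72 (SE 0.13) and an adjusted p of 0.0365, against 7.52% of all genes. Slc7a1, a cationic amino acid transporter, was the only tested solute carrier whose groups did not overlap (1.33%, background 2.4%); it was singled out after its values were seen. It stood at 4.91, 5.50 and 3.48 RPKM after sonication and at 7.997, 9.87 and 5.51 RPKM after tagmentation. Its log2 difference was 0.63 (SE 0.28) with an adjusted p of 0.227 with the block in limma.

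Leaving number 1 out changed the blocked comparison. It then called 9 of the 75 solute carriers (background 16.6%), with Slc16a1 (-1.28), the zinc importer Slc39a10 (-1.18) and Slc25a46 (-0.96) lower after tagmentation. Slc30a7 (0.86), Slc1a4 (0.85), Slc38a2 (0.84), the copper importer Slc31a1 (0.84), Slc25a5 (0.69) and Slc25a3 (0.62) were higher, and limma's adjusted p lay between 0.0205 and 0.0472 for the 9. Without number 2 or without number 3 none was called, against 10 and 19 of all 6327 tested genes. In number 1 itself the difference of Slc16a1, Slc39a10 and Slc25a46 was 0.31, 0.49 and 0.71 on the log2 scale, and that of Slc1a4, Slc25a5 and Slc25a3 was -0.09, -0.14 and -0.23. For these 6 genes number 1 thus went the opposite way. Slc38a2, Slc30a7 and Slc31a1 went the same way in number 1, by 0.46, 0.33 and 0.11. Leaving number 1 out also changed the standard errors, from 0.30 to 0.18 for Slc25a3 and from 0.28 to 0.33 for Slc16a1. What brought the 9 calls was not tested.

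The method difference moved with the GC content of the transcripts. GC content was the median over the gene's GENCODE vM21 transcripts, available for all 75 genes, with a median of 53.2% and a range of 41.9% to 59.7%. Spearman's rho between GC content and the log2 difference over the 75 genes was -0.45, against -0.29 over 6265 genes of all those tested. Within numbers 1, 2 and 3 it was -0.64, -0.33 and -0.24 over the solute carriers and -0.65, -0.20 and -0.09 over all. With transcript length, also the median over the gene's GENCODE vM21 transcripts, rho was 0.10. This median can differ from the length behind the RPKM values. For Slc20a2 it was 490 bases, against a gene model of 3658 bases recovered from the RPKM values. The values of rho are descriptions over genes that share the same libraries.

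Slc16a1, Slc39a10, Slc25a46 and Slc30a5 had a GC content of 42.9%, 42.5%, 43.7% and 42.8%. In number 3 they were lower after tagmentation by 1.88, 0.92, 1.19 and 1.29 on the log2 scale. Slc30a7, Slc31a1, Slc38a2 and Slc30a9, at 43.9%, 44.05%, 44.3% and 44.4% GC, were higher after tagmentation in number 3, by 1.22, 1.27, 0.95 and 1.06. Low GC content thus went with differences in both directions in number 3. These 8 genes were singled out after their values were seen, and the part of GC content in the differences was not tested.

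**Figure D3:**
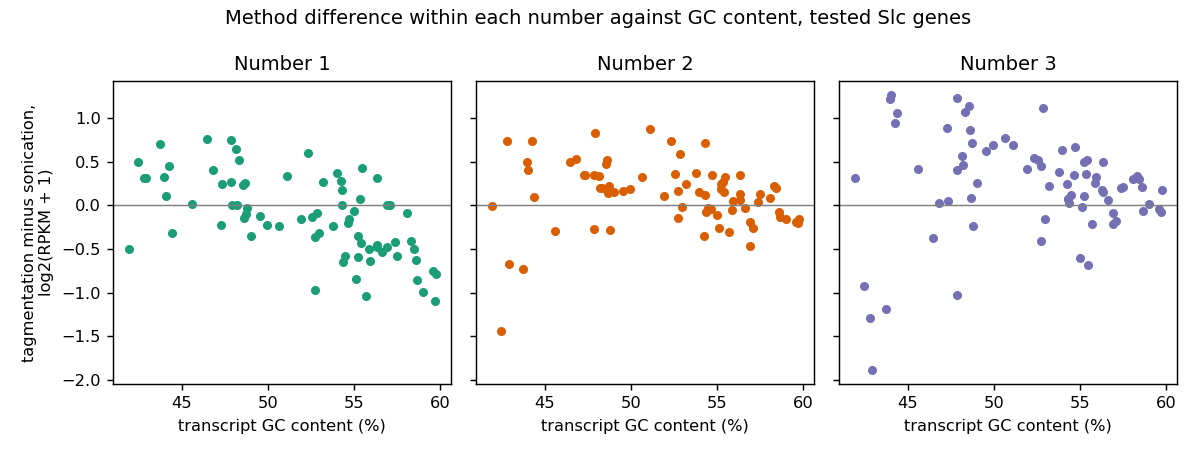
Log2 difference, tagmentation minus sonication, of log2(RPKM + 1) within each replicate number (y axis) against the GC content of the transcripts in percent (x axis), 1 point per tested solute carrier. In number 1 the points run downward with GC content, and in number 3 the genes of lowest GC content lie both at the top and at the bottom.

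The replicate number carried most of the variation. With method as a term, limma's F-test over the numbers called 68 of the 75 solute carriers (90.7%) at an adjusted p under 0.05, against 88.1% of all tested genes. The range of the number means reached 2 on the log2 scale, or 4-fold, in 48 of them (64%, background 58.5%). The median range was 2.50 on the log2 scale (5.64-fold), against 2.38 (5.20-fold) over all tested genes. Of the sum of squares of the solute carriers, 95.5% lay between numbers and 1.98% between methods, against 94.3% and 2.84% over all. The values of the solute carriers lay near the background. The minimum of 3 libraries lets a gene pass through 2 numbers while it is low in the third, and 24 of the 75 were below 1 RPKM in both libraries of at least 1 number. The minimum thus favours genes that differ between numbers, and the count of 68 is a description of the genes that passed.

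Of the 75 genes, 28 were highest in number 1, 32 in number 2 and 15 in number 3 by the mean of both methods. The shares of all tested genes were 39.7%, 38.2% and 22.1%. Both methods placed the same number highest for 64 genes (85.3%, background 84.6%). By role, 5 of the 7 tested nucleotide sugar transporters were highest in number 1, 9 of the 16 amino acid transporters and 3 of the 3 nucleoside transporters in number 2, and 5 of the 11 metal transporters in number 3. These roles were picked after the values were seen. The 15 tested mitochondrial carriers split into 6, 5 and 4 over numbers 1, 2 and 3. The number of genes per role is small, and no test of these splits was made.

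The largest ranges belonged to genes that were low in both libraries of 1 or 2 numbers. Slc35a2, the UDP-galactose transporter of the Golgi, stood at 0.575, 8.10 and 59.4 RPKM after sonication and at 0.958, 10.6 and 66.2 RPKM after tagmentation. Number 3 was high and number 1 low by both methods, a range of 5.18 on the log2 scale. Since it passed the minimum through numbers 2 and 3 only, this range is a description. Slc25a17, a carrier of the peroxisomal membrane, stood at 14.5, 0.436 and 20.4 RPKM after sonication and at 25.02, 0.191 and 49.3 RPKM after tagmentation. It was low in number 2 only (range 4.65). Its values in number 2 rested on 16 and 11 reads, against 641 to 2853 in the other 4 libraries.

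Among the amino acid carriers, Slc1a5, a sodium-dependent glutamine transporter, stood at 3.61, 34.7 and 1.21 RPKM after sonication and at 2.71, 34.2 and 0.993 RPKM after tagmentation. Slc6a6, the taurine transporter, stood at 23.4, 14.5 and 1.31 RPKM after sonication and at 31.9, 18.4 and 0.439 RPKM after tagmentation. Slc1a5 was high in number 2 alone, and Slc6a6 low in number 3 alone. Their ranges were 4.08 and 3.96 on the log2 scale, and both were called by limma's F-test.

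Slc35b4, a transporter of UDP-xylose and UDP-N-acetylglucosamine, had 17.7, 15.98 and 0.115 RPKM after sonication and 21.2, 17.8 and 0.179 RPKM after tagmentation. Only number 3 was low (range 4.15), with 8 and 23 reads against 1300 to 2273 in the other 4 libraries. Slc44a2, a choline transporter, had 6.85, 43.7 and 1.83 RPKM after sonication and 6.14, 56.3 and 3.06 RPKM after tagmentation (range 3.90). Slc19a2, a thiamine transporter, had 42.7, 1.74 and 2.36 RPKM after sonication and 50.5, 2.82 and 6.43 RPKM after tagmentation (range 3.87). Number 2 was the high one for Slc44a2 and number 1 for Slc19a2. Slc25a13, a mitochondrial aspartate/glutamate carrier, had 22.9, 7.20 and 1.61 RPKM after sonication and 39.3, 10.5 and 1.02 RPKM after tagmentation (range 3.76). Slc10a7 (range 3.88) was highest in number 2, at 11.7 and 17.4 RPKM, and Slc16a1 (range 3.86) in number 1, as its values above show.

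Zinc carriers were highest in different numbers. Slc39a4, which imports zinc, stood at 4.42, 60.7 and 17.2 RPKM after sonication and at 2.91, 53.0 and 14.8 RPKM after tagmentation, highest in number 2 (range 3.65). Slc30a9, of the family that moves zinc out of the cytosol, stood at 1.90, 4.98 and 19.8 RPKM after sonication and at 1.33, 5.42 and 42.5 RPKM after tagmentation, highest in number 3 (range 3.53). Slc30a1, the zinc exporter of the plasma membrane, was highest in number 1, at 5.27 and 7.14 RPKM, with 0.174 to 1.38 RPKM in the other 4 libraries. Limma's F-test called the 5 tested members of Slc30 and the 5 of Slc39 between numbers, as it did 88.1% of all tested genes.

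**Figure D4:**
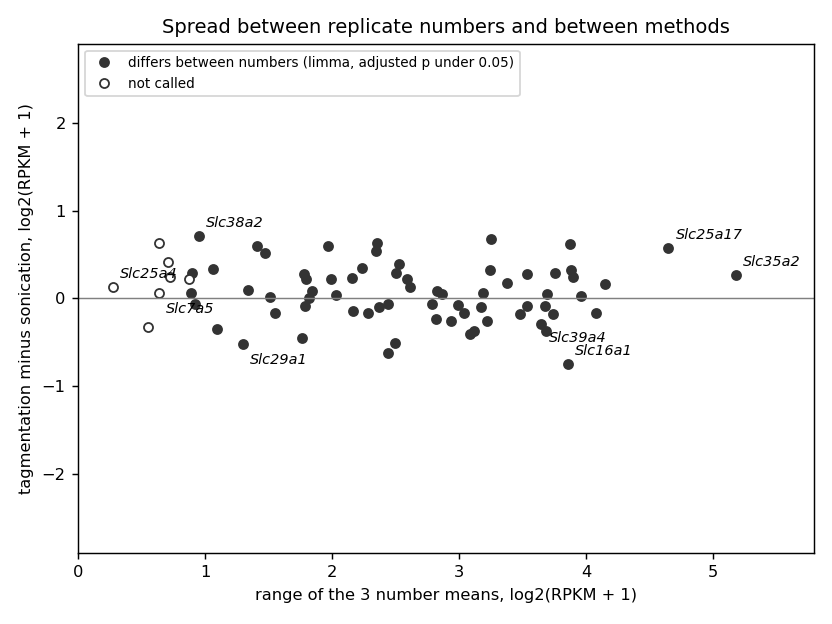
For each tested solute carrier, the range of the 3 number means (x axis, log2 scale) and the difference tagmentation minus sonication (y axis, log2 scale, same units), filled where limma's F-test called the gene between numbers. Ranges run from 0.27 to 5.18, while method differences stay between -0.75 and 0.71.

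The 7 tested solute carriers not called between numbers were Slc25a4, Slc25a5, Slc25a39, Slc2a3, Slc7a5, Slc7a1 and Slc25a44. Their ranges were 0.27, 0.70, 0.55, 0.87, 0.63, 0.64 and 0.72 on the log2 scale, with adjusted p of 0.773, 0.162, 0.277, 0.0689, 0.183, 0.19 and 0.102 in limma's F-test. Of these 7, Slc25a4, Slc25a5, Slc25a39 and Slc2a3 had a mean above 100 RPKM, and Slc25a44, a mitochondrial carrier of branched-chain amino acids, had a mean of 1.06 RPKM. The remaining genes with a mean above 100 RPKM, Slc25a3 and Slc3a2, were called, with ranges of 1.06 and 1.84. After median-ratio scaling or quantile normalization Slc25a4, Slc25a5, Slc25a39, Slc2a3 and Slc7a5 were called too. The calls of Slc25a3, Slc38a2 and Slc16a3 were lost without number 1 and also without number 2, and that of Slc16a3 without number 3 as well. Of the other genes named by rule, Slc3a2, Slc19a2, Slc20a2 and Slc35b1 lost the call without number 1, Slc25a17, Slc29a1 and Slc7a3 without number 2, and Slc6a6 and Slc35b4 without number 3. Slc7a5 gained it without number 1.

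The 113 solute carriers that were not tested fell into 67 that reached 1 RPKM in no library (35.6%, against 27.1% of all rows) and 46 that did so in 1 or 2 libraries (24.5%, against 21.6%). Below 0.1 RPKM in all 6 libraries were 35 (18.6%, against 13.0%). At the other end 45 of the 188 reached 1 RPKM in all 6 (23.9%, against 29.6% of all rows). The sonication libraries 1 to 3 held 93, 79 and 72 solute carriers at 1 RPKM or more and the tagmentation libraries 92, 74 and 61. Number 1 had the most and number 3 the fewest by both methods. The order was the same over all 12331 rows. Of these, 6807, 6355 and 6077 reached 1 RPKM in sonication libraries 1 to 3. In tagmentation libraries 1 to 3, 6784, 5954 and 5426 did so. The order was thus not particular to the solute carriers. The solute carriers took 0.853%, 0.769% and 0.783% of the summed RPKM after sonication and 0.899%, 0.818% and 0.909% after tagmentation.

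Of the 188 genes, 36 reached 1 RPKM in both libraries of 1 number and in none of the other 4 libraries (19.1%, against 16.9% of all rows). The number was 1 for 24 of them (12.8%, against 10.1%), 2 for 7 (3.72%, against 4.16%) and 3 for 5 (2.66%, against 2.64%). This pattern was looked for after the values were seen, and 9 of the 36 stood at 10 RPKM or more in both libraries of their number.

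Slc25a24, a mitochondrial carrier of ATP-Mg and phosphate, had 31.9 RPKM in sonication library 1 and 58.9 RPKM in tagmentation library 1. These values stood for 3265 and 4185 reads, and the other 4 libraries held 0 to 4 reads. Slc7a6, a light-chain partner of Slc3a2 for cationic and neutral amino acids, had 32.4 and 38.6 RPKM in number 1, or 3665 and 3022 reads, against 0 to 13 reads elsewhere. Both genes were thus abundant in number 1 by either method and near 0 in the rest.

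The hexose transporter Slc2a8 had 45.8 and 23.3 RPKM in number 1 and at most 0.0971 RPKM in the other 4 libraries. Slc19a3, a thiamine transporter, had 23.4 and 29.7 RPKM in number 1 and was listed at 0 in the other 4. Its paralog Slc19a2 was also highest in number 1. The zinc importer Slc39a6 had 18.6 and 25.1 RPKM in number 1 and at most 0.41 RPKM elsewhere.

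Other genes reached 1 RPKM in number 2 or number 3 only. Their highest means, 3.96 RPKM for number 2 and 5.16 RPKM for number 3, lay below the 15.1 RPKM of Slc25a24. Slc25a42, a mitochondrial carrier of coenzyme A, had 11.1 and 12.3 RPKM in number 2, was listed at 0 in number 1 and reached 0.236 RPKM in number 3. Slc37a1 had 10.4 and 10.1 RPKM in number 2 and at most 0.157 RPKM elsewhere. The sulfate transporter Slc26a2 had 8.64 and 21.7 RPKM in number 3, was listed at 0 in number 1 and reached 0.352 RPKM in number 2. No tested gene reached 1 RPKM in the libraries of 1 method only.

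**Figure D5:**
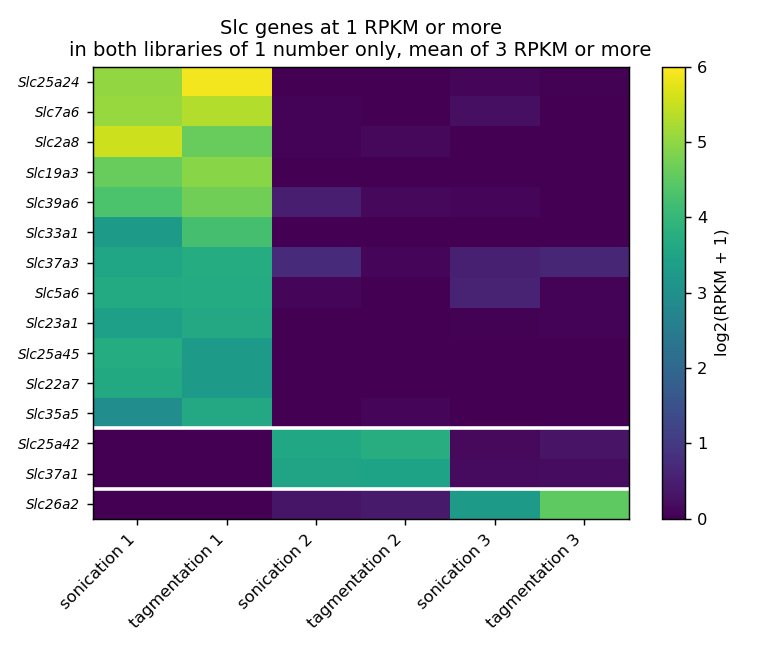
Level, as log2(RPKM + 1), of the 15 solute carriers with a mean of at least 3 RPKM among those that reached 1 RPKM in both libraries of a single replicate number, 12 in number 1, 2 in number 2 and 1 in number 3, separated by white lines. Each gene is bright in the sonication and tagmentation library of its number and dark in the other 4.

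Within a number, the sonication and tagmentation library placed few solute carriers on different sides of 1 RPKM. There were 3 in number 1 (1.60%, against 2.70% of all rows), 7 in number 2 (3.72%, against 5.51%) and 19 in number 3 (10.1%, against 8.82%). Of the 19 in number 3, 15 reached 1 RPKM after sonication only (7.98% of the 188, against 7.05% of all rows) and 4 after tagmentation only (2.13%, against 1.77%). The split was thus near that of all rows. The copper transporter family member Slc31a2 stood at 4.62 RPKM in sonication library 3 and at 0.126 RPKM in tagmentation library 3, and at 1.17 against 0.0475 RPKM in number 2. Slc25a14 stood at 4.19 against 0.627 RPKM in number 3 and at 2.31 against 0.152 RPKM in number 2. In both genes sonication was higher in numbers 2 and 3, and both were listed at 0 in number 1. At the median gene model of 3282 bases, 1 read was worth 0.0162 RPKM in sonication library 3 and 0.00879 RPKM in tagmentation library 3, both far below 1 RPKM.

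Genes that work with the solute carriers were read from the same fits. Of the sodium/potassium pump subunits and monocarboxylate carrier chaperones 5 were tested, of the mitochondrial carriers and pyruvate carrier subunits with other symbols 5, and of the amino acid response and sensing genes 9. Limma called none of them between methods without the block (0% of all tested genes) or with it (3.29%), and called 3, 3 and 8 between numbers (88.1% of all tested genes). Bsg, the chaperone of Slc16a1 and Slc16a3, stood at 261, 207 and 219 RPKM after sonication and at 199, 231 and 290 RPKM after tagmentation, with a range of 0.20 between numbers (adjusted p 0.859 in limma's F-test). Slc16a1, by contrast, ranged over 3.86. Mtch1, a mitochondrial carrier homolog, stood at 158, 171 and 105 RPKM after sonication and at 80.7, 144 and 99.4 RPKM after tagmentation. Atf4, the transcription factor of the amino acid response that is known to act on Slc7a11 and Slc3a2, stood at 219, 270 and 222 RPKM after sonication and at 195, 363 and 402 RPKM after tagmentation. Neither was called between numbers. Slc7a11, the cystine importer, stood at 4.97, 6.17 and 7.52 RPKM after sonication and at 3.23, 6.12 and 9.58 RPKM after tagmentation, in the same order of numbers as Slc3a2 by both methods. Atf4 and Ddit3, of the amino acid response list, had this order after tagmentation only. Asns, Chac1 and Trib3 of that list had other orders by both methods. Slc7a11 was singled out after its values were seen, and a link with Atf4 was not tested.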

How the data were processed

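Expression was measured in 6 libraries, 3 per method. The RPKM values were made and deposited by the authors, per the file headers, which also give each library's alignments. Named in the submitters' processing notes are CASAVA 1.7.0, Partek and, as genome build, mm9. Which aligner and gene models were used, and how multiply matching reads were handled, is not given in the sources used here. No coordinates are printed, because the reference used here (GENCODE vM21 transcripts) is of another build.

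Values were tested as log2(RPKM + 1), a scale that understates the change of low genes. A gene was tested if 3 or more libraries reached 1 RPKM. The tests were made with limma 3.58.1 in R 4.3.3 (functions lmFit and eBayes, with a mean-variance trend) and were two-sided. P-values were adjusted by Benjamini-Hochberg over all 6327 tested genes, with a threshold of 0.05. They compared methods without and with the replicate number as a block, and numbers with method as a term. The fits were tested on simulated data. No label ties same-numbered libraries to a common cDNA. Across genes, deviations from the method means correlated by 0.952, 0.969 and 0.934 within numbers 1, 2 and 3, so the numbers were taken as pairs. In the main setting, blocked standard errors rest on 210 prior degrees of freedom rather than on each gene's own spread. The prior degrees of freedom were 8.44 without number 1, 4.18 after quantile normalization and infinite without number 2 or number 3. Counts called by the blocked fit under different settings therefore differ in this too.

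Reads were recovered from the steps of the RPKM values for 95 of the 188 solute carriers, to within 0.002 reads plus a share of 1e-05. Reads amplified by PCR and not marked by molecular identifiers are no independent molecules, so read counts cover counting error only.

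The members, lists and tests were chosen with earlier results of these data known. By rule, the text names the 12 genes of highest mean, genes called between methods or with non-overlapping groups (means from 10 RPKM), and the largest 10 (means from 5 RPKM) and smallest 5 (means from 10 RPKM) ranges between numbers. It adds the top gene of each family with at least 4 tested members, the pairs Slc25a4 with Slc25a5 and Slc3a2 with Slc7a5, and the top gene of each partner list. The rule gave 26 solute carriers. The genes found in a single number, those on different sides of 1 RPKM, the shared 36-base words, the stretch of sequence shown, the GC content and length comparison and any other gene named were chosen after the values were seen. The alternatives covered the pseudocount, the minimum level, the scaling, the GC correction and each replicate left out.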

Additional observations from a re-analysis of the deposited data

How the results depend on the processing

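The count of 0 solute carriers called between methods without the block held under every pseudocount, minimum, scaling and left-out library tried. With the replicate block the count was also 0, with 1 after quantile normalization (Slc29a1) and 0 to 9 when a replicate number was left out. In the main setting the block, which pairs the numbers, changed no call of a solute carrier. A GC correction within the blocked fit called 0, against 17 of 6265 genes. Over all 6327 tested genes the blocked fit called 476 after quantile normalization and 1051, 10 and 19 without numbers 1, 2 and 3. Between numbers, 126 of 188 were called without a minimum and 40 of 45 at a mean of at least 10 RPKM, against 47 to 55 of 75 when a number was left out. The same counts over all genes were 8263 of 12331, 3411 of 4023 and 3856 to 4557 of 6327. Genes at the threshold numbered 105.5 per library at 0.1 RPKM, 54.8 at 5 RPKM and 42.0 at 10 RPKM, against 78.5 at 1 RPKM. Without Slc25a3 the mean share of the summed RPKM was 0.702% in place of 0.839%. Small method differences changed sign: Slc20a2 to -0.031 with median-ratio scaling, -0.17 with quantile normalization and -0.11 with the block and GC correction, Slc3a2 to -0.037 and Slc7a5 to -0.14 with quantile normalization, and Slc6a6 to -0.20 with a pseudocount of 0.1 and -0.013 with median-ratio scaling. Of 594 values for the 26 genes named by rule, 66 changed sign, most of them when a library was left out, and the cause was not tested. With 1 library left out, the log2 difference of the genes that changed sign ranged as follows: Slc10a7 -0.85 to 1.39, Slc16a1 -2.16 to 0.13, Slc16a3 -0.64 to 0.10, Slc19a2 -0.47 to 1.90, Slc1a5 -1.39 to 0.9996, Slc20a1 -0.22 to 0.93, Slc20a2 -0.39 to 0.61, Slc25a13 -0.73 to 1.43, Slc25a17 -0.65 to 2.21, Slc25a4 -0.019 to 0.20, Slc30a9 -0.88 to 1.23, Slc35a2 -1.03 to 1.60, Slc35b1 -0.23 to 0.89, Slc35b4 -1.17 to 1.53, Slc39a4 -1.22 to 0.68, Slc3a2 -0.40 to 0.75, Slc44a2 -0.89 to 1.33, Slc6a6 -1.001 to 1.40, Slc7a3 -0.20 to 0.79, Slc7a5 -0.15 to 0.31. In the blocked fit the changed signs were Slc20a2 -0.043 without number 2, Slc20a2 -0.10 without number 3, Slc25a4 -0.023 without number 3, Slc30a9 -0.11 without number 3, Slc35b1 -0.013 without number 3, Slc3a2 -0.14 without number 3, Slc6a6 -0.18 without number 1, Slc6a6 -0.12 without number 2, Slc7a5 -0.16 without number 3.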
